A study of Mus musculus with 24 samples.

Results

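Replication-dependent histone genes are the many small genes, most of them in clusters, that supply the bulk of histone protein when a cell copies its DNA. Members were taken by name from the deposited gene table, as H1f1 to H1f5 and every gene whose name starts with H2ac, H2bc, H3c or H4c followed by a digit (the older Hist names were searched too). Of 69 names that matched, 3 marked as pseudogenes were left out, so that 66 of the 56941 genes of the table were members. They were 5 H1, 18 H2A, 18 H2B, 12 H3 and 13 H4 genes. By the GENCODE M39 annotation of the mouse genome GRCm39, 53 of them lie on chromosome 13, 10 on chromosome 3, 2 on chromosome 11 and 1 on chromosome 6, and the reference transcript of 61 has 1 exon.

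RNA was measured in 24 engineered muscle tissues, 6 per condition: an unstimulated control and daily light pulses for 30 min at 1, 4 or 10 Hz. The tissues were grown from C2C12 mouse myoblasts that carry ChR2::tdTomato, a blue light-gated cation channel fused to a red fluorescent protein, so the control tissues carry the channel too. Myoblasts were differentiated on fibrin hydrogel in medium with horse serum and IGF-1 for about 2 weeks, and tissues of every condition, the control included, also twitched on their own. All tissues come from 1 cell line, so p-values measure only the spread between tissues of that line, and in bulk RNA fewer cells of a type and less RNA per cell cannot be told apart. Libraries were made from poly(A)-selected RNA, except that samples of low input were ribodepleted, and the labels do not say which these were.

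Most RNAs of these genes are unusual in having no poly(A) tail. A short stem-loop just after the stop codon is bound by the stem-loop binding protein SLBP and marks where the transcript is cut, with the help of the U7 small nuclear RNA, and the RNAs are made in S phase and destroyed when DNA synthesis ends. The core histones H2A, H2B, H3 and H4 form the nucleosome, and H1 binds the DNA that links nucleosomes. Some of these genes are also known to give poly(A)-tailed transcripts in cells that have stopped dividing, by reading past the stem-loop to a later poly(A) signal.

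The stem-loop itself was looked for in the genome sequence, as 16 bases with a fully paired stem of 6 bases and a loop of 4, within 150 bases after the stop codon. The stem had to start with GG and the loop to read T, not G, T, not G. A stem-loop of another form would therefore be missed. The form sought was found for 62 of the 66 members and in 10 of 21492 other protein-coding genes (0.047%). Those 10 include the histone genes H1f6, H2ax, H2bc26, H2bw2 and H3f4, which are outside the rule used here. In the members it started 21 to 58 bases after the stop codon, with a median of 31. The members hold 8 distinct forms, and 39 of them share the commonest. The 4 members without a match are H2ac22, H2bc21, H2bc23 and H2bc24. Stem-loops of 8 members whose levels are described next are shown 5′ to 3′ as RNA-sense DNA with 5 bases on each side, with the 16 bases of the stem-loop in capitals, because they are the element that sets these transcripts apart from ordinary mRNA.
H1f2: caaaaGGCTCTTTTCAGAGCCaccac
H1f3: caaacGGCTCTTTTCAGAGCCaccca
H2bc4: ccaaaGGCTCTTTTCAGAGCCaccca
H2bc6: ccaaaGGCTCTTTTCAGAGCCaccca
H2bc12: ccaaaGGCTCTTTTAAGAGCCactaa
H2ac6: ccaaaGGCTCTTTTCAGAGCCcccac
H3c4: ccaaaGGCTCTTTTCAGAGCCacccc
H4c9: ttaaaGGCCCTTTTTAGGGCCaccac

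In GRCm39 the capitals of H1f2 lie at chr13:23923495-23923510 and those of H1f3 at chr13:23739961-23739976, both on the plus strand. Those of H2bc4 lie at chr13:23868630-23868645 and those of H2bc12 at chr13:22220470-22220485, on the plus strand, as do those of H3c4 at chr13:23760418-23760433. On the minus strand, those of H2bc6 lie at chr13:23769514-23769529, those of H2ac6 at chr13:23867460-23867475 and those of H4c9 at chr13:22225136-22225151. Each lies after the stop codon in the 3′ untranslated region. H2bc4 and H2bc6, an abundant and a scarce H2B gene of which 1 passed the test below and the other did not, have all 26 bases in common. The second form of the list, in H2bc12, was held by 8 members, and the form of H4c9 by 2.

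The promoters of 57 members were found in the RefSeq promoter table (build GRCm38.p6, 250 bases before to 50 after each start). The octamer ATTTGCAT, known as a binding site of Oct-1 in H2B promoters, was found on either strand in 13 of the 57 (22.8%), against 1.925% of the promoters of all other genes in the table. All 13 belonged to H2B (7) or H2A (6) members. The letters TATAAA were found in 59.6% of the member promoters and 15.6% of the others, and CCAAT in 86.0% and 41.0%. Promoters of H4 members held CCAAT less often, 3 of 11. A window of 30 bases around the octamer is shown for 3 members that passed the test described below in at least 1 comparison, with the octamer in capitals as it reads on the strand of the gene, forward in the H2B genes and reversed in the H2A gene.
H2bc12: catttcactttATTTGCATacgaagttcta
H2bc6: agtaagacttaATTTGCATaagactgccta
H2ac6: tgggtgggattATGCAAATgaagtttccag

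By a unique exact match in GRCm39 these windows lie at chr13:22219950-22219979 (plus strand) for H2bc12, at chr13:23770002-23770031 (minus strand) for H2bc6 and at chr13:23868054-23868083 (minus strand) for H2ac6. The window of H2bc12 is shared with its divergent neighbour H2ac12, whose promoter holds the same octamer on the other strand. The 3 genes with an octamer shown here did not move alike, as given below.

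The members were scarce in the RNA that these libraries recovered, and the shares in this paragraph are of that RNA. They held 73628.6 of all counts over the 24 libraries, whose totals lay between 4.09 M and 15.2 M (mega) with a median of 7.48 M. Their TPM (a level per transcript length, scaled to the same sum in each library) summed to 510 ± 71.6 per library (SD, n = 24). For scale, the 2 genes of the replication-independent H3.3, H3f3a and H3f3b, summed to 1119 TPM, so that the H3 members made up 0.665 ± 0.306% of that H3 pool. The H2A members made up 10.5 ± 2.23% of the pool they form with 6 H2A variant genes such as H2ax and H2az1. The H1 members were the larger side of their pool, at 61.5 ± 3.63% of it with H1f0 and H1f10 as the rest.

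H1f2, a linker histone, was by far the most abundant member, at a mean of 229 TPM and 44.8 ± 4.28% of the members' summed TPM. H2bc4, an H2B gene, followed at 118 TPM, and both genes together held 68.2 ± 3.69%. Then came H2bc12 at 33.4 TPM, H2ac18 at 28.9, H2ac24 at 18.1, H2ac19 at 10.7 and H2ac25 at 10.4. The leading H4 gene, H4c9, had 8.83 TPM, and the leading H3 gene, H3c15, had 3.60 TPM. Summed by class, H1 held 233 TPM, H2B 177, H2A 73.3, H4 18.4 and H3 7.47, although the nucleosome holds the 4 core histones in equal number. Levels from these libraries are of RNA that survived the selection of tailed RNA or the ribodepletion, and its loss was not measured for any gene.

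A filter on low counts left 17 members for testing (3 H1, 5 H2A, 6 H2B, 2 H3 and 1 H4), and these held 97.9% of all member counts. The other 49 stayed below it, and 3 of them, H2ac22, H2ac23 and H3c14, were at 0 in every library. Because a member can pass such a filter through 1 condition alone, counts over the 17 do not speak for all 66. A member was counted as changed when edgeR's quasi-likelihood test gave a Benjamini-Hochberg adjusted p below 0.05, over the 13318 genes tested, with an absolute log2 fold change above 0.5. CPM are counts per M (mega) of the library, scaled by the TMM method.

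**Figure D1:**
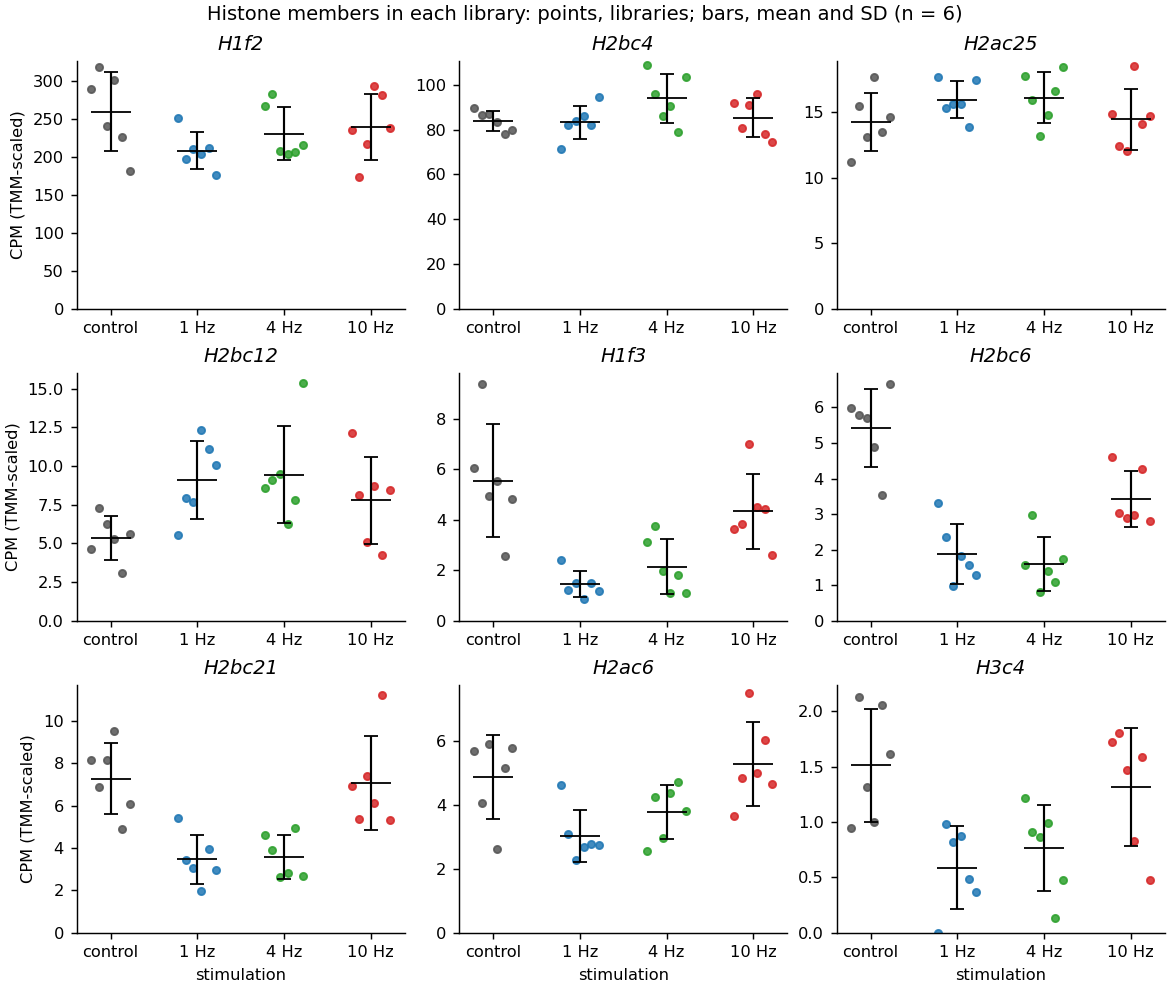
TMM-scaled CPM (vertical) of 9 member genes by condition (horizontal), with 1 point per library and bars for the mean and SD of 6. H1f3 and H2bc6 lie lower in every 1 Hz tissue than in any control tissue, whereas the conditions overlap for H1f2, H2bc4 and H2ac25.

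At 1 Hz, 5 of the 17 tested members were lower than in the control (29.4%, against 8.99% of all genes tested) and 1 was higher (5.88%, against 9.34%). The 5 were H1f3, H2bc6, H3c4, H2bc21 and H2ac6, and the 1 was H2bc12. The median log2 fold change of the 17 was −0.56, beside −0.01 for all genes tested, and 12 of the 17 lay below 0. The most abundant members, H1f2 and H2bc4, did not pass the test. H2bc6, H2bc21 and H2ac6 are outside the rule that chose the genes described by name, and were added after their values were seen.

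H1f3, a linker histone, fell the most. Its 6 control libraries held 2.56 to 9.40 CPM, with a median of 5.25, and its 6 libraries at 1 Hz held 0.863 to 2.40, with a median of 1.37. Every 1 Hz tissue was below every control tissue. The log2 fold change was −1.98 (SE 0.33, adjusted p = 8.2e-05).

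H2bc6 encodes an H2B and is annotated over a long stretch whose 5′ end, upstream of the stem-loop, overlaps part of H1f4 on the same strand. The control libraries held 3.53 to 6.67 CPM (median 5.75) and the 1 Hz libraries 0.974 to 3.32 (median 1.69). Again no tissue of either condition overlapped the other. Its log2 fold change was −1.60 (SE 0.28, adjusted p = 0.000137). Such full separation from the control at 1 Hz was seen for no other tested member. How common it is among all genes tested was not counted, so it is not read as particular to these genes.

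H2bc21 is an H2B gene on chromosome 3 (chr3:96128435-96131054, plus strand) known for poly(A)-tailed transcripts in resting and differentiated cells, and no stem-loop was found for it. The control libraries spanned 4.88 to 9.52 CPM (median 7.50) and those at 1 Hz spanned 1.98 to 5.4 (median 3.26). The highest 1 Hz tissue lay above the lowest control tissue, and the log2 fold change was −1.11 (SE 0.23, adjusted p = 0.000685).

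H3c4 and H2ac6 fell by less certain amounts. H3c4, an H3 gene with 187.5 counts in all, had 0.946 to 2.13 CPM in the control (median 1.47) and 0 to 0.986 at 1 Hz (median 0.651), a log2 fold change of −1.32 (SE 0.44, adjusted p = 0.0215). H2ac6, an H2A gene, had 2.61 to 5.92 CPM in the control (median 5.43) and 2.29 to 4.61 at 1 Hz (median 2.76), a log2 fold change of −0.70 (SE 0.23, adjusted p = 0.0198). The tissues of both conditions overlapped for each gene. The call on H3c4 did not stand without control replicate 2 (adjusted p = 0.0571) or 1 Hz replicate 6 (0.0576), and that on H2ac6 did not stand without control replicate 3 (0.0540) or 1 Hz replicate 3 (0.0549).

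H2bc12 was the 1 member that rose. It had 3.08 to 7.28 CPM in the control (median 5.44) and 5.54 to 12.3 at 1 Hz (median 9.0), so that the ranges overlapped at their edges. The log2 fold change was 0.76 (SE 0.25, adjusted p = 0.0198). Without 1 Hz replicate 4 it was 0.66 (adjusted p = 0.0552). H2bc12 has a short annotated model that ends 30 bases after its stem-loop.

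The abundant members H1f2 and H2bc4 did not pass the test at 1 Hz. H1f2 had 182 to 320 CPM in the control (median 265) and 177 to 251 at 1 Hz (median 207), a log2 fold change of −0.32 (SE 0.13, adjusted p = 0.0543). H2bc4 had 78.2 to 89.7 CPM in the control (median 84.9) and 71.6 to 94.5 at 1 Hz (median 82.9), a log2 fold change of −0.01 (SE 0.08, adjusted p = 0.932). The libraries of both conditions overlapped widely for both genes. H2ac25, an H2A gene on chromosome 11 that lies within Trim17 on the same strand, had medians of 14.1 CPM in the control and 15.7 at 1 Hz, and its log2 fold change was 0.15 (SE 0.12, adjusted p = 0.331).

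The other named members with enough counts also overlapped between control and 1 Hz and did not pass. Their log2 fold changes were −0.56 for H1f4 (adjusted p = 0.0812), −0.53 for the H4 gene H4c9 (0.130), −0.65 for H2ac18 (0.127), 0.26 for H2ac24 (0.526) and 0.02 for the H3 gene H3c15 (0.964). H2ac18 turned on single tissues, since without control replicate 3, where it had 2.29 CPM against 10.7 to 14.6 in the rest, its log2 fold change was −0.87 (adjusted p = 0.0202), and without 1 Hz replicate 5 it was −0.88 (0.0463). H1f4 passed without control replicate 5 (log2 fold change −0.68, adjusted p = 0.0369).

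H2ac18 and H2ac19 are near-identical H2A genes on chromosome 3, between which reads cannot be divided surely. H2ac19 had a count in 14 of the 24 libraries, with up to 10.6 CPM in 1 of them and 0 in the rest. Their summed CPM had medians of 13.3 in the control, 11.3 at 1 Hz, 10.4 at 4 Hz and 13 at 10 Hz, and with both counted as 1 gene the log2 fold changes against the control were −0.38, −0.37 and 0.08 (adjusted p = 0.154, 0.141 and 0.881). H2bc13 was uneven in the same way, with a count in 13 libraries and a range of 0 to 5.60 CPM in the control. Over all members, 81.7% of values above 0 were not whole numbers, against 19.5% over all genes, which is how salmon shares reads that fit several transcripts.

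**Figure D2:**
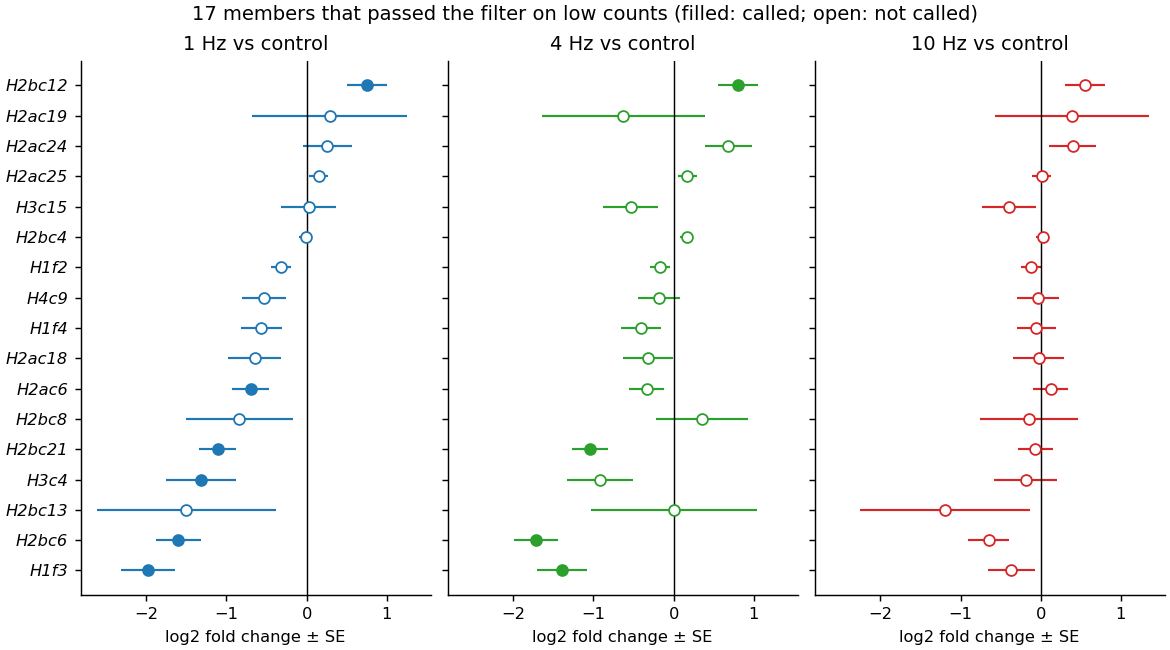
Log2 fold change of the 17 tested members against the control at 1, 4 and 10 Hz, with bars of 1 SE and filled points for genes that passed the test. H2bc6, H1f3 and H2bc21 passed at 1 and 4 Hz on the lower side, H2bc12 on the higher side, and no member passed at 10 Hz.

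At 4 Hz, 3 of the 17 were lower than in the control (17.6%, against 9.61% of all genes tested) and 1 was higher (5.88%, against 10.5%). The 3 were H2bc6, H1f3 and H2bc21, and H2bc12 was again the 1 that rose. The median log2 fold change of the 17 was −0.32, beside −0.01 for all genes. The comparisons at 1, 4 and 10 Hz share the same 6 control tissues, so their values are set side by side and not as separate evidence.

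H2bc6 had the strongest change at 4 Hz, with 0.796 to 2.97 CPM (median 1.48), below every control tissue. Its log2 fold change was −1.72 (SE 0.28, adjusted p = 3.1e-05). H1f3 had 1.10 to 3.77 CPM (median 1.88), which overlapped the control, and its log2 fold change was −1.39 (SE 0.31, adjusted p = 0.000908).

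H2bc21 had 2.62 to 4.92 CPM at 4 Hz (median 3.36), and its highest tissue lay just above the lowest control tissue. The log2 fold change was −1.04 (SE 0.23, adjusted p = 0.00075). H2bc12 had 6.28 to 15.4 CPM (median 8.83), with its lowest tissue inside the control range. The log2 fold change was 0.81 (SE 0.25, adjusted p = 0.0113).

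H3c4 and H2ac6 were not past the test at 4 Hz. H3c4 had 0.137 to 1.22 CPM (median 0.886) and a log2 fold change of −0.92 (SE 0.41, adjusted p = 0.0795), and H2ac6 had 2.57 to 4.73 CPM (median 4.04) and −0.34 (SE 0.22, adjusted p = 0.228). H2ac24, an H2A gene, had 3.38 to 9.48 CPM against 1.49 to 4.94 in the control and a log2 fold change of 0.68 (SE 0.29, adjusted p = 0.0628). That gene passed without control replicate 1 (adjusted p = 0.0420), without 4 Hz replicate 2 (0.0337) and without 4 Hz replicate 5 (0.0484), and with DESeq2 (0.0451). H1f2 (−0.17, SE 0.13, adjusted p = 0.299) and H2bc4 (0.16, SE 0.08, adjusted p = 0.123) were small in log2 fold change.

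At 10 Hz, 0 of the 17 passed in either direction, where 1.24% of all genes tested were higher and 0.623% lower. At an unadjusted p below 0.05 there were 2, H2bc6 (log2 fold change −0.65, SE 0.26, adjusted p = 0.144) and H2bc12 (0.55, SE 0.25, adjusted p = 0.208). DESeq2 and limma on log2(TPM + 1) also called 0. H1f3 had 2.60 to 6.99 CPM (median 4.13) and a log2 fold change of −0.37 (adjusted p = 0.516), and H2bc21 had 5.31 to 11.2 CPM (median 6.54) and −0.07. Both ranges overlapped that of the control.

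The members with the lowest p at 10 Hz lay between the control and the lower frequencies or beside them. H2bc6 had 2.80 to 4.61 CPM at 10 Hz (median 2.99), with some tissues below and some inside the control range. H2bc12 had 4.26 to 12.1 CPM (median 8.30), across and above the control range. H2ac6 (3.66 to 7.49 CPM, median 4.92) and H3c4 (0.480 to 1.80 CPM, median 1.53) overlapped the control, with log2 fold changes of 0.13 (adjusted p = 0.798) and −0.19 (0.844).

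H1f2 and H2bc4 were again close to the control at 10 Hz. H1f2 had 174 to 294 CPM (median 237) and a log2 fold change of −0.12 (SE 0.13, adjusted p = 0.659). H2bc4 had 74.4 to 95.8 CPM (median 85.9) and 0.02 (SE 0.08, adjusted p = 0.915).

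H4c9, H3c15 and H1f4, of lower level, overlapped between every pair of conditions. H4c9 had medians of 3.91, 2.91, 3.21 and 3.88 CPM in the control and at 1, 4 and 10 Hz. H3c15 had 2.66, 2.55, 1.81 and 1.71, and H1f4 had 3.81, 2.32, 2.36 and 3.49. None of the 3 passed in any comparison with the control.

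The frequencies were also set against each other. These comparisons use the same stimulated libraries as those with the control, so they are not separate evidence. In 10 Hz against 1 Hz, 5 members were higher (29.4%, against 9.45% of all genes tested) and 0 lower (against 8.49%). They were H1f3 (log2 fold change 1.61, SE 0.33, adjusted p = 0.000507), with every 10 Hz tissue above every 1 Hz tissue, H2bc21 (1.04, SE 0.23, 0.000985), H2ac6 (0.82, SE 0.22, 0.00516), H2bc6 (0.95, SE 0.28, 0.0107) and H3c4 (1.13, SE 0.43, 0.0405). The call on H3c4 was lost without 1 Hz replicate 1, 5 or 6 (adjusted p = 0.0700, 0.0694 and 0.0989) and without 10 Hz replicate 1, 2, 3 or 5 (0.0939, 0.0847, 0.0683 and 0.0680). H2bc12, higher than the control at 1 Hz, did not differ past the test here.

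In 10 Hz against 4 Hz, 3 members were higher (17.6%, against 5.32% of all genes tested) and 0 lower (against 5.64%). They were H2bc21 (0.98, SE 0.22, adjusted p = 0.00309), with no overlap of tissues, H2bc6 (1.07, SE 0.28, 0.00732) and H1f3 (1.03, SE 0.31, 0.0176). The call on H1f3 was lost without 4 Hz replicate 4 (adjusted p = 0.0535), 4 Hz replicate 6 (0.0510) or 10 Hz replicate 3 (0.0653). Between 4 Hz and 1 Hz, 0 members passed (1.59% of all genes tested were higher and 1.4% lower), 1 had an unadjusted p below 0.05 (H2bc4, log2 fold change 0.17), and DESeq2 and limma also called 0. The H1f3 and H2bc6 medians of 1.37 and 1.69 CPM at 1 Hz stood beside 1.88 and 1.48 at 4 Hz.

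**Figure D3:**
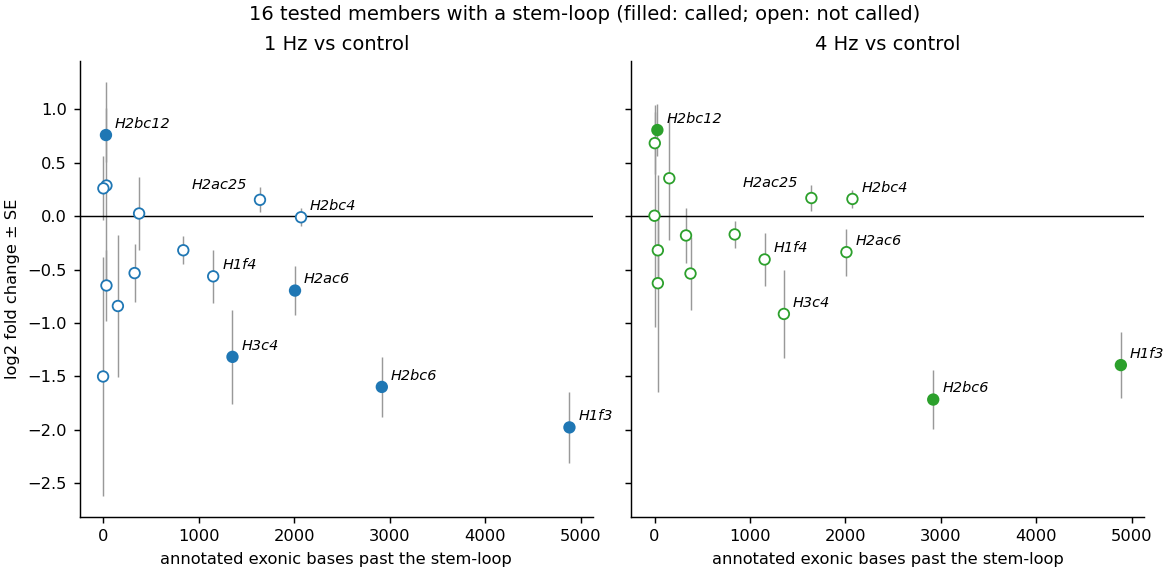
Log2 fold change against the control at 1 Hz and 4 Hz (vertical, with bars of 1 SE) of the 16 tested members with a stem-loop, by the number of annotated exonic bases past it (horizontal), filled where the gene passed the test. The members that were lower sit at over 1000 bases and the 1 that was higher at 30.

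The tested members differ in how far their annotated models run past the stem-loop. The models of H1f3, H2bc6, H2bc4, H2ac6, H2ac25, H3c4 and H1f4 run 4884, 2919, 2073, 2010, 1643, 1355 and 1153 bases past it. Of these 7, 4 were lower at 1 Hz and 2 at 4 Hz, and 0 were higher. Of the 9 members with up to 1000 bases, 0 were lower and 1, H2bc12, was higher at either frequency. H2bc21, in which no stem-loop was found, was lower at both. H2bc4, H2ac25 and H1f4 are long models that did not pass at 1 Hz or 4 Hz, so the split is not complete. The lengths were compared, and cut at 1000 bases, after the changes were known, over few genes, and no test was made. H1f2, at 840 bases, falls on the shorter side of the cut. On that side H2bc13, H2ac19 and H2bc8 had wide errors at 1 Hz (SE 1.12, 0.97 and 0.67), so a change in them could hardly pass.

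Some of those long models share ground with other genes. H2bc6 (chr13:23766595-23805139, minus strand) overlaps part of H1f4 on the same strand at its 5′ end. At its 3′ end, past the stem-loop, it overlaps part of H4c4 on the other strand. H2bc4 (chr13:23867631-23878163, plus strand) and H2ac6 (chr13:23865450-23867931, minus strand) overlap on opposite strands. The libraries were directional, but whether the counting used strand is not given in the sources used here, so the values of such pairs are uncertain. H1f3 (chr13:23737436-23744860, plus strand) and H3c4 (chr13:23759937-23761855, plus strand) overlap no other member.

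Members below the filter are described by their sums and directions, with no test. The 49 together had 8.68 to 10.4 CPM in the control (median 9.83), 4.22 to 6.67 at 1 Hz (median 5.31), 4.62 to 8.68 at 4 Hz (median 6.14) and 8.53 to 16.2 at 10 Hz (median 12.1). Every 1 Hz tissue was below every control tissue, and the highest 4 Hz tissue lay just under the lowest control tissue. The sums rest on 18 to 181 counts per library.

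Over all 66 members, the mean CPM at 1 Hz was lower than in the control for 45 and higher for 14, with 7 at 0 in both. That is 76.3% lower of those with a count, beside 54.4% for all genes in the table. At 4 Hz the share was 65.5% (all genes 52.1%), and at 10 Hz 45.9% (all genes 46.0%). With counts scaled by the library total alone, without TMM, the shares were 78.0%, 67.2% and 50.8%, beside 59.1%, 57.5% and 49.3% for all genes.

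**Figure D4:**
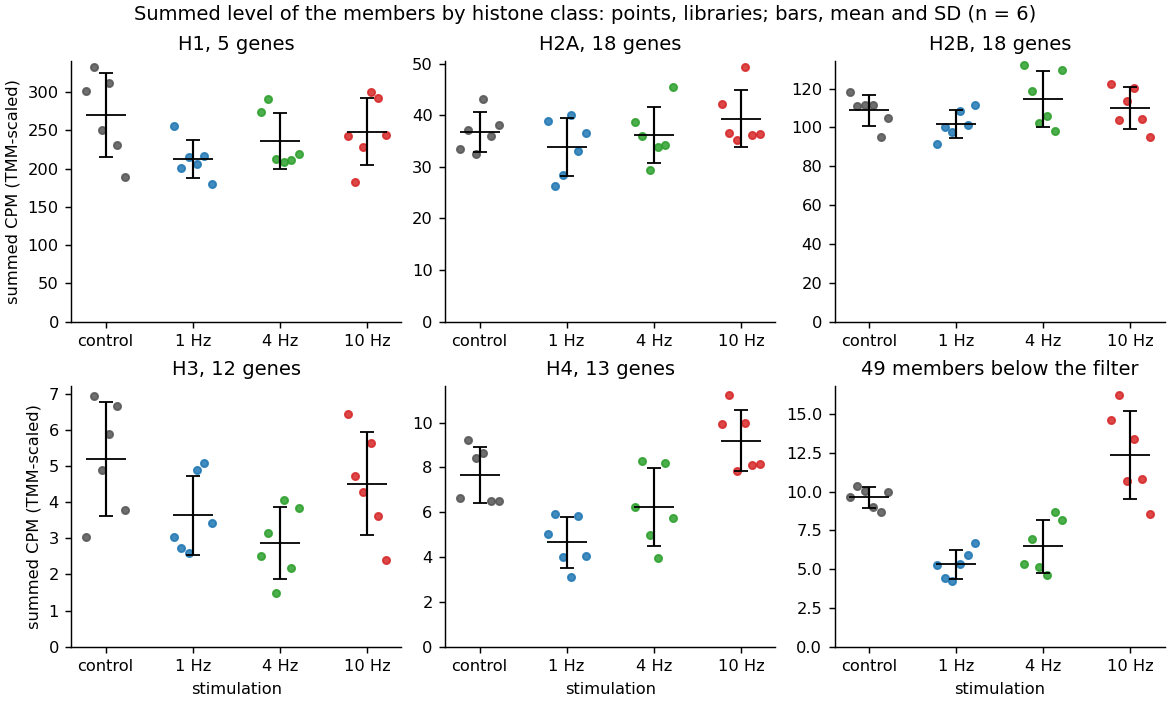
Summed CPM of the members of each class, and of the 49 members below the filter, (vertical) by condition (horizontal), with 1 point per library and bars for the mean and SD of 6. The H4 sums and the sums below the filter are lower in all 1 Hz tissues than in any control tissue, whereas the H1, H2A and H2B sums overlap.

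The classes differed in this. The 13 H4 genes, of which only H4c9 was tested, summed to 6.49 to 9.22 CPM in the control (median 7.52), 3.1 to 5.92 at 1 Hz (median 4.52), 3.97 to 8.28 at 4 Hz (median 5.98) and 7.82 to 11.2 at 10 Hz (median 9.03). The 1 Hz tissues lay wholly below the control, and 12 of the 13 had a lower mean, with 1 at 0. The H3 sums overlapped, with medians of 5.39, 3.23, 2.83 and 4.50 CPM in the control and at 1, 4 and 10 Hz.

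H1, H2A and H2B sums are ruled by a few abundant genes. The H2A and H2B sums stayed close, whereas the H1 medians were lower at 1 Hz and 4 Hz than in the control. The H1 sums had medians of 276, 211, 216 and 244 CPM in that order, the H2A sums 36.6, 34.8, 35.1 and 36.5, and the H2B sums 111, 101, 112 and 109, each with overlap of all conditions. All 5 H1 members had a lower mean at 1 Hz and at 4 Hz than in the control, whereas the H2A members divided into 8 lower and 7 higher at 1 Hz.

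Of the named members below the filter, H4c18 (103.6 counts in all) had medians of 0.380, 0.300, 0.374 and 1.11 CPM in the control and at 1, 4 and 10 Hz, and H4c8 (92.2 counts) had 0.470, 0.178, 0.413 and 0.925. H4c1 (42.4 counts) had 0.449, 0.190, 0.169 and 0.136. The H2B gene H2bc18 (92.0 counts) had 0.616, 0.164, 0.191 and 0.941, with a range of 0.694 to 1.5 at 10 Hz, above all tissues at 1 Hz and 4 Hz. The linker histone H1f5 had 39 counts in all, and the H3 genes H3c11 and H3c10 had 29.6 and 20.7, too few to compare. H2bc24, chosen after its values were seen and 1 of the 4 members in which no stem-loop was found, was listed with a count in 5 of 6 control and 4 of 6 10 Hz libraries and at 0 in all 12 libraries at 1 Hz and 4 Hz. H2bc23, another of those 4, ran the other way, with a count in every library at 1 Hz and 4 Hz. Its medians were 0, 0.886, 0.878 and 0.334 CPM in the control and at 1, 4 and 10 Hz. Whether reads were divided between H2bc23 and H2bc24 was not tested.

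**Figure D5:**
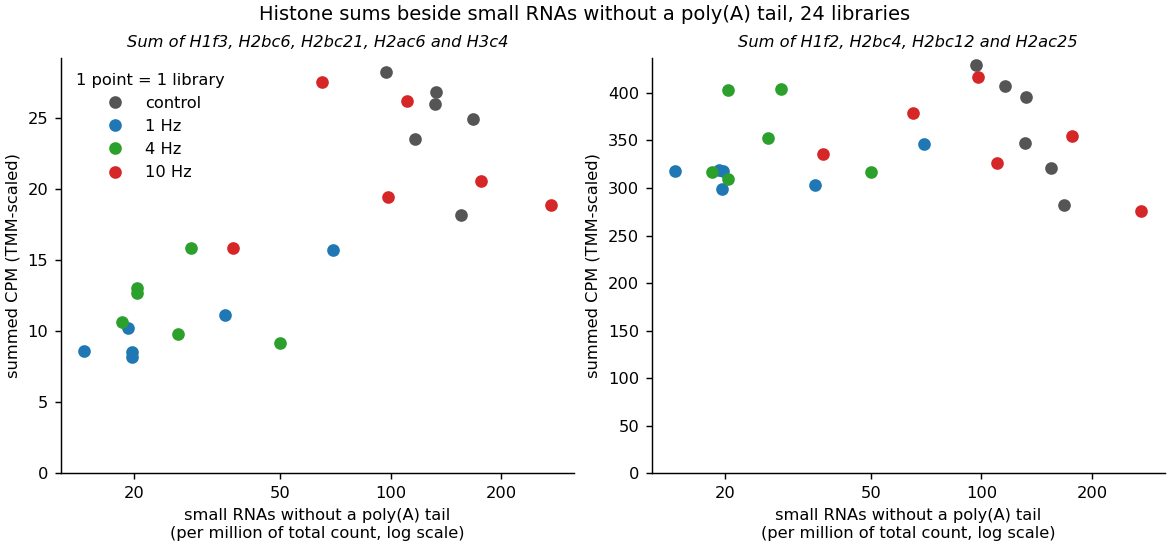
Share of listed small RNAs without a poly(A) tail (CPM of the total count, horizontal, log scale) beside the summed CPM (vertical) of the 5 members that were lower at 1 Hz (left) and of H1f2, H2bc4, H2bc12 and H2ac25 (right), 1 point per library, coloured by condition. The genes on the right are not those of highest mean TPM, since H2ac18 is left out, and H2bc12 was the 1 member that rose at 1 and 4 Hz. Control libraries hold 96.8 to 168 CPM of the small RNAs and 1 Hz libraries 14.6 to 69.6, and the 10 Hz libraries spread between 37.1 and 272.

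Small RNAs that have no poly(A) tail were also lower at 1 and 4 Hz than in the control. A list of 31 small RNA names, such as 7SK, the RNA of RNase P and U snRNAs, gave 27 entries in the table. Together they took 96.8 to 168 CPM of the total count, without TMM scaling, in the control (median 132), 14.6 to 69.6 at 1 Hz (median 19.7), 18.5 to 50.0 at 4 Hz (median 23.3) and 37.1 to 272 at 10 Hz (median 104). Of the 5 that could be tested, 3 were lower at 1 Hz (Rn7sk, Rn7s2 and Rpph1), 2 at 4 Hz (Rn7sk and Rpph1) and 0 at 10 Hz (median log2 fold changes −2.39, −2.21 and 0.00).

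The summed CPM of H1f3, H2bc6, H3c4, H2bc21 and H2ac6 ran from 18.2 to 28.2 in the control, 8.22 to 15.7 at 1 Hz, 9.21 to 15.9 at 4 Hz and 15.9 to 27.6 at 10 Hz, a description of genes chosen for their change. With the log2 share of the small RNAs as a covariate, 0 of the 17 members passed in any comparison, and over all genes 1 gene passed at 1 Hz in place of 2441, and 228 at 4 Hz in place of 2676. H1f3 then had a log2 fold change of −1.73 at 1 Hz (adjusted p = 0.252) and H2bc6 −1.05 (0.396), of the same direction and with wider errors. In that share, neither the 1 Hz nor the 4 Hz libraries overlapped the control, so that in these comparisons condition and covariate cannot be told apart. The shares at 10 Hz overlapped those of every other condition. With the covariate, 181 genes passed in 10 Hz against 1 Hz in place of 2390, and 0 against 4 Hz in place of 1460. In 10 Hz against the control, 204 passed in place of 248. Among the 6 libraries at 10 Hz, the 2 with the highest small RNA shares (176 and 272 CPM) had 5-gene sums of 20.6 and 18.9 CPM. The 2 with the lowest (65.1 and 37.1) had 27.6 and 15.9. In the same order, the members below the filter summed to 14.6, 16.2, 10.8 and 8.53 CPM. At 1 Hz, the 2 libraries with the highest shares (69.6 and 35.2 CPM) had the highest 5-gene sums (15.7 and 11.1). The other conditions ran otherwise. At 4 Hz, the highest share (50.0) went with the lowest 5-gene sum (9.21). In the control, the lowest share (96.8) went with the highest (28.2). The part of RNA selection or ribodepletion in these results was not tested.

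Of 21 tested factors that make and handle histone mRNA, 1 was higher and 3 lower at 1 Hz (against 9.34% and 8.99% of all genes), 2 and 4 at 4 Hz (against 10.5% and 9.61%), and 0 and 0 at 10 Hz (median log2 fold changes −0.22, −0.32 and −0.07). The CPM of the 22 factors listed summed to 1356 to 1434 in the control and 1289 to 1466 at 10 Hz. At 1 Hz it was 1191 to 1281 and at 4 Hz 1187 to 1305, both wholly below the control. Lsm11, a protein of the U7 particle, rose at 1 Hz (0.68, adjusted p = 0.000118) and 4 Hz (0.54, 0.000805). Srrt, which joins the cap-binding complex to 3′ end formation, fell at 1 Hz (−0.74, 3.7e-05) and 4 Hz (−0.65, 9.8e-05). Casp8ap2 and Hinfp, of histone gene transcription, fell at both as well. Slbp, the stem-loop binding protein, had log2 fold changes of −0.45, −0.46 and −0.15 (adjusted p = 0.0067, 0.00478 and 0.533), smaller than the fold required.

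Replication-independent variants, whose mRNAs have poly(A) tails, gave 1 higher (Cenpa, 0.69) and 1 lower (H1f0, −0.57) of 11 tested at 1 Hz. At 4 Hz, Cenpa (0.86) and H2az1 (0.60) were higher and H2ax (−0.55) lower, and at 10 Hz 0 passed. H2ax is known to make both tailed and stem-loop transcripts, and was among the 10 other genes in which a stem-loop was found. Of 16 histone chaperones and acetyltransferases, 1 (Asf1a, −0.55) was lower at 1 Hz and 0 passed at 4 Hz or 10 Hz.

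Genes of DNA replication, the setting in which these histones are normally made, were mostly not past the test, but more were lower than higher at 1 Hz and 4 Hz. The TPM of the 40 S phase genes summed to 697 to 779 in the control. It was 603 to 675 at 1 Hz and 541 to 678 at 4 Hz, both wholly below the control, and 618 to 711 at 10 Hz. Their summed CPM overlapped, at 834 to 888 in the control, 802 to 839 at 1 Hz, 801 to 895 at 4 Hz and 846 to 921 at 10 Hz. Of 40 S phase genes, 1 was higher and 7 lower at 1 Hz (against 9.34% and 8.99% of all genes), 3 and 6 at 4 Hz (against 10.5% and 9.61%), and 0 and 0 at 10 Hz, with median log2 fold changes of −0.20, −0.12 and 0.01. Mcm5, a subunit of the replicative helicase, fell at 1 Hz (−0.80, adjusted p = 0.0305) and 4 Hz (−1.01, 0.00631), as did Cdc6, which loads it (−1.02, 0.00904 and −1.15, 0.00292), and E2f8, a repressor of the E2F family, rose (1.27, 4.4e-05 and 1.26, 2.5e-05). Of 20 G2 and mitosis genes, 1 was higher and 1 lower at 1 Hz, 3 and 2 at 4 Hz and 1 and 0 at 10 Hz, and the 3 higher at 4 Hz were Mki67, Top2a and Ube2c. Mki67, a marker of dividing cells, had means of 0.148, 0.223, 0.297 and 0.118 TPM in the control and at 1, 4 and 10 Hz.

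Markers of the tissue moved as well. Of 15 markers of differentiated muscle, 12 were higher at 1 Hz, 13 at 4 Hz and 3 at 10 Hz, and 0 lower. Their TPM summed to 12465 ± 1003 per library in the control (SD, n = 6), so the transcripts that define muscle were present. Of 8 markers of undifferentiated myoblasts, 2 were higher at 1 Hz (Myod1 and Pax7), 2 higher and 1 lower at 4 Hz, and 0 passed at 10 Hz. Whether a change in the makeup of the cultures had a part in the histone levels was not tested.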

How the data were processed

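The authors made poly(A)-selected libraries (ribodepleted where input was low), sequenced them as paired-end reads and, per the labels, quantified them with an nf-core RNA-seq pipeline using STAR and Salmon against GRCm39. For each gene the authors deposited an estimated count (expected counts from Salmon, with no scaling) and, in another table, the TPM that the authors scaled within each library. The annotation release is not given in the sources used here. Groups and replicate numbers came from the sample titles.

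Estimated counts were rounded, and filterByExpr (by condition) kept 13318 genes with 99.8% of the counts. All 24 libraries entered a single edgeR 4.0.16 model (R 4.3.3, limma 3.58.1) with TMM scaling and no factor besides condition. Its quasi-likelihood test, through glmQLFit and glmQLFTest, was applied to 6 contrasts, with Benjamini-Hochberg adjustment over all genes tested. Adjusted p-values in the report are edgeR's unless another tool is named. The study used DESeq2, run here as an alternative (1.42.0) with the same thresholds of 0.05 and 0.5. Limma was run on log2(TPM + 1) and log2(TPM + 0.1), keeping genes whose mean was 1 TPM or more, and on log2(TPM + 1) without that filter. The test was first tried on simulated data with known changes.

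Stem-loops, gene positions and overlaps came from the GRCm39 sequence and GENCODE M39, whose release may differ from the authors' annotation, and promoters from RefSeq. Totals of 4.09 M to 15.2 M counts per library limit the scarce members. No 2 libraries of a condition agreed within counting noise. Members and lists (histone variants, mRNA processing factors, chaperones, S phase, G2 and mitosis, small RNAs, muscle and myoblast markers) were chosen with earlier results of these data known. Genes described by name are the 4 members of highest mean TPM in each class plus any member called at 10 Hz against the control (0), with additions named in the report.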

Additional observations from a re-analysis of the deposited data

Results flagged for a closer look

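In 5 of 72 groups of 6 libraries, the most distant library stood farther from its nearest neighbour than Dixon's 95% critical value for 6 samples allows, as a share of the group's range. Chance alone gives about 1 in 20 groups. H2bc12 had 15.4 CPM in 4 Hz replicate 6, against 6.28 to 9.50 in the other 4 Hz libraries. H2ac19 had 10.6 CPM in 1 Hz replicate 4, against 0 to 3.40. H2ac18 had 2.29 CPM in control replicate 3, against 10.7 to 14.6, and H2ac18 and H2ac19 are near-identical genes. H2bc21 had 11.2 CPM in 10 Hz replicate 5, against 5.31 to 7.40. H2ac6 had 4.61 CPM in 1 Hz replicate 1, against 2.29 to 3.09.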

How the results depend on the processing

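The members past the test at 1 Hz, 4 Hz and 10 Hz against the control and in 10 Hz against 1 Hz and 4 Hz numbered 6, 4, 0, 5 and 3. Over all 13318 genes tested, 2441, 2676, 248, 2390 and 1460 passed. Among genes with a mean of at least 5 CPM the members past the test were 2, 2, 0, 1 and 1, because H1f3, H2bc6, H2ac6 and H3c4 are then not tested. Over all 10577 genes tested there, 1661, 1855, 220, 1664 and 927 passed. With no filter on low counts, where more members are tested, those past the test were 6, 7, 1, 9 and 7. Over all 31472 genes tested there, 2740, 2973, 267, 2646 and 1540 passed. H2ac6 and H3c4 were lost at 1 Hz (adjusted p = 0.0610 and 0.0543), H2bc24 and H4c17 came in at 1 and 4 Hz and H2bc18 in the comparisons with 10 Hz. With limma on log2(TPM + 1) and no filter, 7 members passed at 4 Hz and 1 (H4c1) at 10 Hz, where 2748 and 158 of all 31566 genes passed. With the small RNA share as a covariate 0 members passed in all comparisons, and over all 13318 genes 1, 228, 204, 181 and 0 passed. Leaving out 1 library at a time gave 5 to 7, 4 to 5, 0, 4 to 5 and 2 to 3 members. No call on a named member against the control turned its direction under any alternative run, and limma lost H2bc12 at 4 Hz (adjusted p = 0.0524 to 0.121) and, without a filter, H2bc12 (0.0854) and H2ac6 (0.0564) at 1 Hz. H2ac24 passed at 4 Hz with DESeq2 (0.0451) and H3c4 with limma on log2(TPM + 1) (0.0248).

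Library numbers pair nothing the labels name, and same-numbered libraries did not deviate together in every pair. With the replicate block the counts of members were 6, 4, 0, 4 and 3, and H3c4 in 10 Hz against 1 Hz was the call lost. Over all 13318 genes the counts were 2430, 2668, 266, 2374 and 1468. Scaling by total count moved the median log2 fold change over the genes tested to −0.08 (1 Hz) and −0.11 (4 Hz) and the calls at 1 Hz from 1244 higher and 1197 lower to 942 and 1595 (at 4 Hz from 1396 and 1280 to 1012 and 1821), and limma on log2(TPM + 1) gave 677 and 2057 at 4 Hz with a median of −0.16. With total counts, H2bc12 still passed as higher at 1 Hz and the 5 other members as lower, and H1f4 passed as lower too (adjusted p = 0.0486). Scarce members, such as the 49 below the filter, are limited by depth.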
